A study of Rattus norvegicus with 18 samples.

Results

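The genes described here are Bmp4, Gpr17, Lims2, Bcas1, Enpp6, Sirt2 and Cnp, which serve as markers of oligodendrocyte progenitors that have committed to differentiation and of newly formed oligodendrocytes. They were chosen by name, and all 7 were found among the 17337 genes of the files. Total RNA was sequenced from rat oligodendrocyte progenitor cells (OPCs) enriched with magnetic beads, in 6 groups of 3 libraries. Aged cells were grown on soft gels, grown on stiff gels, or taken as primary sorted cells, and neonate cells were handled in the same 3 ways. The gels were hydrogels coated with laminin, and the labels give FGF and PDGF in the medium. The same growth text stands beside the primary sorted libraries too, whose titles mark age with a letter alone. No strain, sex, age in weeks or gel stiffness is given for any group, and the labels do not tell whether replicates were different animals. The p-values therefore reflect library-to-library spread, possibly of technical origin.

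OPCs divide, and those that stop dividing pass through a short committed stage before they build myelin. Gpr17, a G protein-coupled receptor, is switched on in that stage and is lost again in mature oligodendrocytes. Bcas1 and Enpp6 mark cells that are just forming myelin, whereas Cnp and Sirt2 stay high in myelinating oligodendrocytes.

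Levels are given as scaled TPM, that is TPM (a share of the library corrected for transcript length) summed per gene and divided by a scaling factor for each library. Depth was low. The 3 most abundant entries, led by ribosomal RNA, took 43.4% to 88.2% of TPM. The libraries held 12.9 to 52.6 megabases of aligned sequence and the equivalent of 33939 to 141883 read pairs on annotated exons, and 5842 to 14999 genes were above 0. Some library listed 0 for 6 of 14 housekeeping genes, so an entry of 0 is reported below only as listed at 0. The 3 libraries numbered 1 in the aged groups stood apart by their broad coverage: 54.7% to 77.2% of olfactory receptor genes, which brain cells are not known for, were covered in them, against 0.251% to 39.2% in the other libraries. OPC markers were present in every library. Their 9 genes summed to 67.3 to 173 scaled TPM in aged primary cells, the lowest of the 6 groups by median, and to 765 to 877 scaled TPM in neonate primary cells. On gels the same sum was 65.5 to 452 scaled TPM in aged cells and 822 to 1610 scaled TPM in neonate cells. Markers of microglia and macrophages, 15 genes, summed to 2931 to 5520 scaled TPM in aged primary cells and to 136 to 287 scaled TPM in neonate primary cells. In these mixed samples, fewer cells of a type and less RNA per cell cannot be told apart.

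Bmp4 encodes a secreted ligand that holds back oligodendrocyte differentiation. On aged soft gels the 3 libraries held 0, 3.12 and 0 scaled TPM, and on aged stiff gels 17.96, 31.2 and 0. In aged primary cells they held 14.04, 0 and 6.49 scaled TPM. In neonate cells it was at 0, 8.45 and 55.2 scaled TPM on soft gels, at 8.97, 19.3 and 61.2 on stiff gels and listed at 0 in all 3 primary libraries. All neonate stiff libraries lay above all aged soft and all neonate primary libraries, and the other pairs of groups overlapped or shared a 0. Bmp4 rested on very few reads, with a median of 0.638 read-pair equivalents per library and at most 8.44.

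Gpr17 had 25.7, 30.4 and 234 scaled TPM in aged soft libraries, 55.5, 13.9 and 0 in aged stiff libraries and 41.7, 18.9 and 12.8 in aged primary libraries. In neonate cells it had 0, 24.8 and 132 scaled TPM on soft gels, 93.4, 96.4 and 78.9 on stiff gels, and 54.1, 37.9 and 12.5 in primary cells. The neonate stiff libraries were close to each other and above those of 3 other groups (aged stiff, aged primary and neonate primary), whereas both soft groups held 1 library far above its 2 partners. The median library had 3.22 read-pair equivalents on Gpr17, and 1 read pair was worth 4.37 to 20.5 scaled TPM, so single reads move these values.

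Lims2 encodes a LIM-domain adaptor of integrin adhesions, the complexes by which cells hold on to their substrate. It had 17.4, 9.27 and 45.2 scaled TPM in aged soft libraries, 29.7, 59.7 and 251 in aged stiff libraries and 1.28, 7.55 and 5.91 in aged primary libraries. In neonate cells it had 101, 680 and 1392 scaled TPM on soft gels, 519, 642 and 1476 on stiff gels, and 371, 434 and 378 in primary cells. It was the member with the highest mean in the series, 357 scaled TPM over the 18 libraries. Every aged library other than the stiff one at 251 lay below every neonate library. That order was lost on a level without exons 3 and 4 of Lims2, given below.

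Bcas1 encodes a cytosolic and membrane-bound protein of early myelinating oligodendrocytes. It had 6.24, 6.27 and 45.0 scaled TPM in aged soft libraries, 20.1, 31.7 and 57.6 in aged stiff libraries and 2.61, 0 and 1.85 in aged primary libraries. In neonate cells it had 22.9, 71.8 and 298 scaled TPM on soft gels, 229, 222 and 291 on stiff gels, and 21.9, 7.93 and 31.9 in primary cells. Neonate stiff libraries and 1 neonate soft library held all values above 200 scaled TPM, and aged primary cells held the 3 lowest values. These 3 rested on 0.718, 0 and 0.487 read-pair equivalents.

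Sirt2, an NAD-dependent deacetylase abundant in oligodendrocytes, had 37.6, 69.8 and 72.6 scaled TPM in aged soft libraries, 31.2, 49.96 and 59.4 in aged stiff libraries and 24.2, 14.95 and 16.5 in aged primary libraries. In neonate cells it had 49.7, 108 and 456 scaled TPM on soft gels, 506, 384 and 378 on stiff gels, and 25.2, 26.3 and 30.7 in primary cells. Its order of groups by mean level was neonate stiff, neonate soft, aged soft, aged stiff, neonate primary and aged primary. Neonate stiff and neonate soft overlapped, as did neonate soft and aged soft, and aged soft and aged stiff, whereas the 2 primary groups lay below all gel libraries. That separation from primary cells was lost on a level without exons 9 to 12 of Sirt2, given below. Every neonate stiff library lay above every aged library.

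Cnp, the cyclic nucleotide phosphodiesterase of oligodendrocytes and their myelin, had 12.4, 10.97 and 45.4 scaled TPM in aged soft libraries, 12.9, 0 and 44.4 in aged stiff libraries and 21.6, 28.4 and 41.3 in aged primary libraries. In neonate cells it had 16.6, 48.3 and 64.9 scaled TPM on soft gels, 63.7, 67.6 and 88.7 on stiff gels, and 0.400, 11.7 and 7.31 in primary cells. Neonate primary cells were the lowest group by mean and neonate stiff the highest.

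Enpp6, a choline-specific phosphodiesterase of newly forming oligodendrocytes, was listed at 0 in 10 of the 18 libraries. It had 27.6, 7.92 and 25.8 scaled TPM in aged primary cells and was listed at 0 in all 3 neonate primary libraries. On gels it was at 0 in all 3 aged soft libraries and at 14.8, 0 and 0 scaled TPM in aged stiff libraries. It was at 0, 0 and 3.80 scaled TPM in neonate soft libraries and at 6.06, 8.75 and 4.94 in neonate stiff libraries. At most 4.90 read-pair equivalents stood behind any of these values.

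**Figure D1:**
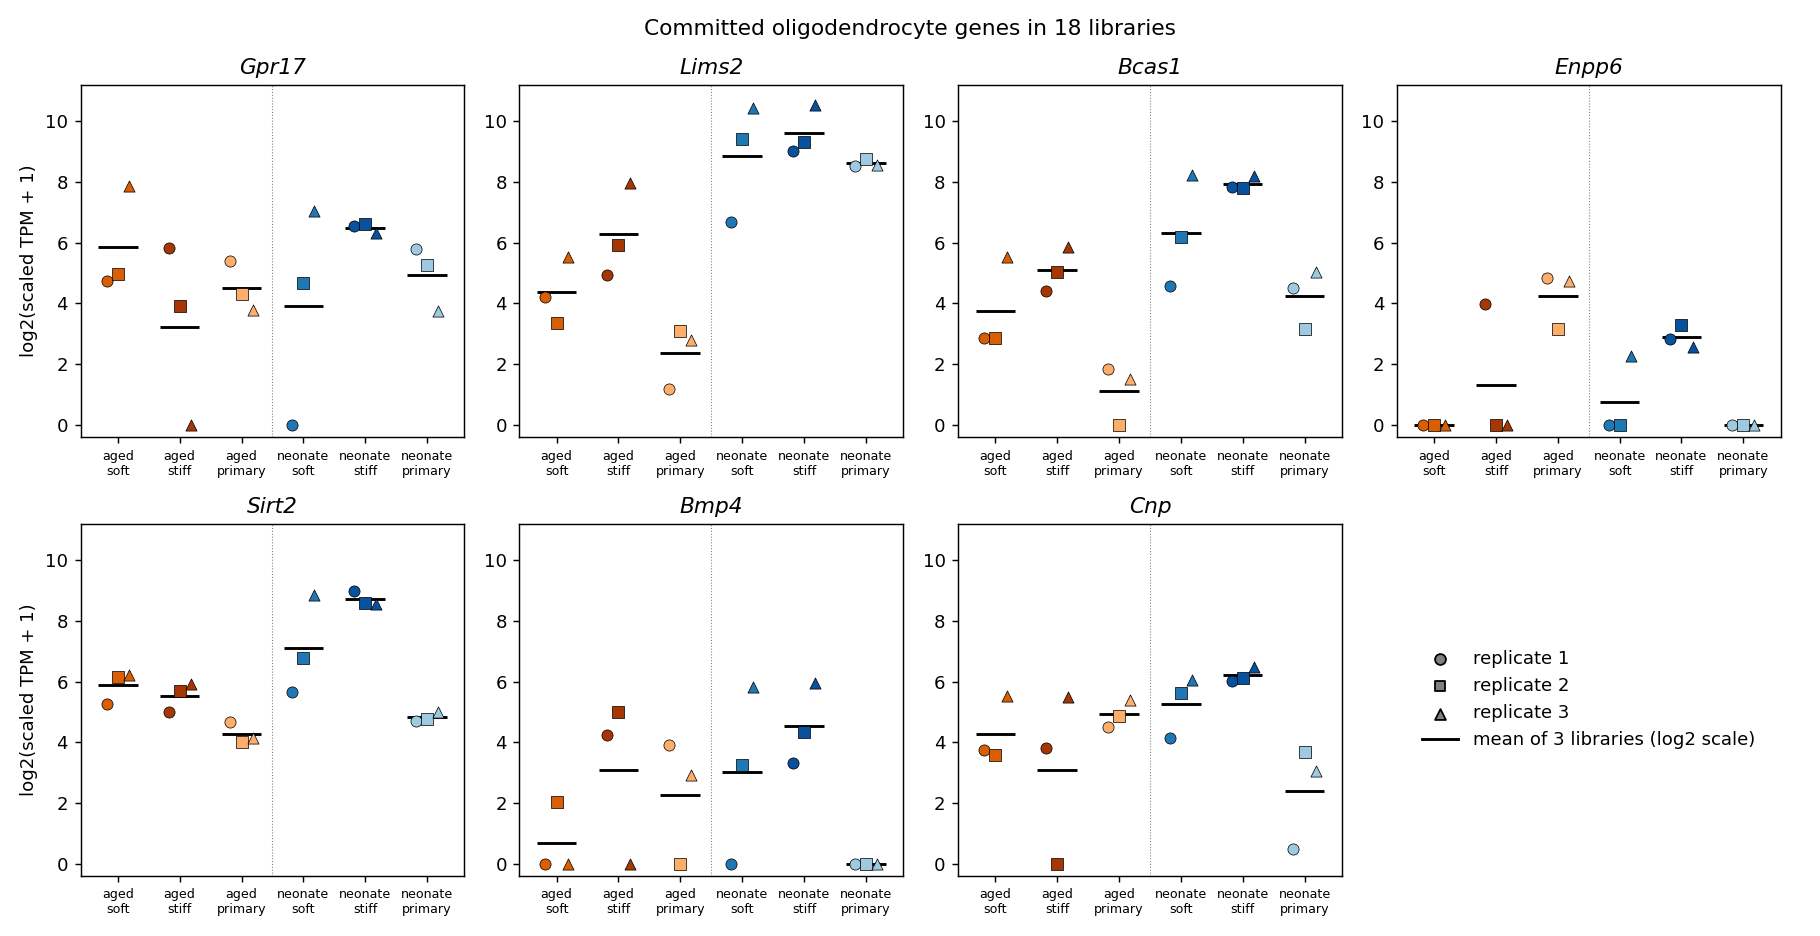
Levels of the 7 genes in the 18 libraries, as log2(scaled TPM + 1), with 1 point per library, its shape giving the replicate number, and a bar at the mean of each group of 3. Lims2 lies lowest in aged primary cells (1.28 to 7.55 scaled TPM), and Enpp6 is above 0 in all aged primary and all neonate stiff libraries.

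The first question was how age changed these genes in cells straight after sorting. Lims2 was lower in aged primary cells, at 4.91 ± 3.25 scaled TPM, against 394 ± 34.5 in neonate primary cells (SD, n = 3 each), with a log2 difference of -6.27 (SE 0.82; limma, adjusted p = 5.47e-05). Enpp6 was higher in aged primary cells, at 20.4 ± 10.9 scaled TPM (SD, n = 3), and listed at 0 in neonate primary cells, and it passed the test narrowly (limma, adjusted p = 0.0499). Its fitted log2 difference of 4.25 (SE 1.18) depends on the pseudocount. Bcas1 averaged 1.49 ± 1.34 scaled TPM in aged and 20.6 ± 12.05 in neonate primary cells (SD, n = 3 each), with a log2 difference of -3.12 that missed the threshold (SE 0.88; limma, adjusted p = 0.0525) and passed it without scaling (limma, adjusted p = 0.0308) and with a replicate block (limma, adjusted p = 0.0242).

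These 2 calls among 7 genes stand beside 394 calls among the 15144 genes tested, or 2.6%. Of the others, Cnp had a log2 difference of 2.53 (limma, adjusted p = 0.266), Bmp4 of 2.27 (limma, adjusted p = 0.586), Sirt2 of -0.56 (limma, adjusted p = 0.728) and Gpr17 of -0.44 (limma, adjusted p = 0.909). In the libraries themselves, Enpp6 and Cnp were higher in every aged than in every neonate primary library, as were 11.1% of all genes tested. Lims2, Bcas1 and Sirt2 were lower in every aged library, as were 4.97% of all genes. Without its exons 9 to 12 Sirt2 overlapped, at 7.66 to 27.5 scaled TPM in aged and 10.8 to 24.6 in neonate primary libraries. Lims2 overlapped as well without its exons 3 and 4, and both levels are taken up below. The median difference of all genes was 0.69 on the log2 scale, and 0.54 without scaling, so Lims2 lay further below the bulk of genes than below 0 and Enpp6 less far above it.

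Lims2 kept its call in this comparison whichever of the 6 libraries was left out (limma, adjusted p = 0.000265 to 0.0013) and without the 3 broad libraries (limma, adjusted p = 0.00183). It lost the call and turned direction on a level taken without its exons 3 and 4, at 0.08 (limma, adjusted p = 0.997), an alternative chosen after the exon values were seen. The Enpp6 call held without the broad libraries (limma, adjusted p = 0.0304) and was lost with each of the 6 left out, without the filter (limma, adjusted p = 0.0588) and with a pseudocount of 0.1 (limma, adjusted p = 0.103). Its adjusted p by limma was 0.104, 0.0712 and 0.146 without aged primary replicates 1, 2 and 3, and 0.141, 0.157 and 0.163 without neonate primary replicates 1, 2 and 3. The summed microglial markers were higher and the summed OPC markers lower in the same aged libraries, as given above, and their part in these differences was not tested. Choroid plexus markers, 3 genes, summed to 1431 to 6790 scaled TPM in aged primary cells and 272 to 1209 in neonate primary cells, and their part was not tested either. The 9 mature oligodendrocyte markers summed to 157, 174 and 389 scaled TPM in aged primary libraries, against 328, 190 and 229 in neonate primary libraries, so the groups overlapped. That overlap rested on Mog, which made up nearly all of the neonate sums. It was at 316, 168 and 229 scaled TPM in neonate primary libraries and lower, at 16.9, 0 and 23.5, in aged ones. Of the rest, Mobp, Mal, Ermn, Opalin and Aspa were at 0 in all 3 neonate primary libraries. The part of mature oligodendrocytes in the age differences was not tested.

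The promoters of Enpp6 and Cnp are shown because these are the members that were higher in every aged primary library than in every neonate one. Both come from RefSeq on the GRCr8 assembly, which is later than the rn6 build of the expression files, and span 250 bases before and 50 after the annotated start. Capitals mark CANNTG, the E-box letters that basic helix-loop-helix factors such as Olig2 can bind, and ACAAAG, letters that SOX factors can bind, on either strand (CTTTGT is ACAAAG on the other strand). The Enpp6 promoter lies on the minus strand at chr16:52026679-52026978 and the Cnp promoter on the plus strand at chr10:86011254-86011553.
Enpp6: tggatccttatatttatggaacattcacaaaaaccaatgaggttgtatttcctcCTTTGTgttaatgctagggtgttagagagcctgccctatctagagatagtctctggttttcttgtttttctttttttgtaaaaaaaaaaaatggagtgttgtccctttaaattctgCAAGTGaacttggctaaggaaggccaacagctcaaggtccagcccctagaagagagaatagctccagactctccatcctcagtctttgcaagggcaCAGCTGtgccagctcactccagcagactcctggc
Cnp: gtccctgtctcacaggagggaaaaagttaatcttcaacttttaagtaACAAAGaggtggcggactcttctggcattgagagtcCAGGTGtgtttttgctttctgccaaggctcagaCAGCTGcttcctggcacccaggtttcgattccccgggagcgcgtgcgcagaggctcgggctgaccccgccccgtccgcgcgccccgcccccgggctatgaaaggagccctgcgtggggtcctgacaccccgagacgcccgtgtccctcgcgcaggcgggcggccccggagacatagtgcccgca
Each holds CANNTG at 2 places, 1 of which is CAGCTG, a form contained in CANNTG, and ACAAAG at 1 place. Over 33469 promoters of the same length, 72.1% held CANNTG, 15.1% CAGCTG and 18.8% ACAAAG. Of the 6 members with a promoter in that table, Bmp4 also held CAGCTG once and CANNTG at 2 places, whereas those of Gpr17, Lims2 and Sirt2 held none of these motifs. TATAAA and ACAATG were searched as well and occurred in none of the 6. These matches describe the letters and do not show binding.

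After culture the age comparison set the mean of both aged gel groups against that of both neonate gel groups. Lims2, Bcas1 and Sirt2 were lower in aged cells on gels. Lims2 differed by -3.91 on the log2 scale (SE 0.58; limma, adjusted p = 5.76e-05), Bcas1 by -2.71 (SE 0.62; limma, adjusted p = 0.00839) and Sirt2 by -2.20 (SE 0.45; limma, adjusted p = 0.00326). These are 3 calls among 7 members, beside 841 among all genes tested, or 5.55%, of which 266 were lower, or 1.76%. The differences of the 7 members were negative, with a median of -2.04, whereas the median of all genes was 0.71. That of Gpr17 turned positive with voom (0.035), on soft gels alone (1.95) and without aged stiff replicate 3 (0.15) or neonate soft replicate 3 (0.12), and that of Lims2 on a level without its exons 3 and 4 (0.29; limma, adjusted p = 0.867).

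Cnp had a difference of -2.04 (SE 0.73; limma, adjusted p = 0.096), and it passed the test only when aged stiff replicate 3 was left out (limma, adjusted p = 0.0167). Bmp4, at -1.90 (limma, adjusted p = 0.246), Enpp6, at -1.16 (limma, adjusted p = 0.383), and Gpr17, at -0.65 (limma, adjusted p = 0.671), did not pass. In single libraries the groups overlapped for all 3 called genes. The neonate soft library with the lowest values, at 101 scaled TPM of Lims2, 22.9 of Bcas1 and 49.7 of Sirt2, lay within the aged range of each.

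All 3 calls on gels held whichever of the 12 libraries was left out. Adjusted p by limma was at most 0.000538 for Lims2, 0.0423 for Bcas1 and 0.0153 for Sirt2. The Bcas1 call was lost with a pseudocount of 0.1 (limma, adjusted p = 0.0573) and without scaling (limma, adjusted p = 0.052). Without the broad libraries the adjusted p was 0.00215 for Lims2, 0.0491 for Bcas1 and 0.0217 for Sirt2. On the soft gels alone Lims2 was called at -4.48 (limma, adjusted p = 0.00266), whereas Bcas1 at -2.58 (limma, adjusted p = 0.14) and Sirt2 at -1.22 (limma, adjusted p = 0.335) were not. On the stiff gels alone Lims2 at -3.35 (limma, adjusted p = 0.0231) and Sirt2 at -3.18 (limma, adjusted p = 0.0051) were called, and Bcas1 at -2.84 was not (limma, adjusted p = 0.0977). The summed microglial markers were 290 to 988 scaled TPM on aged gels and 34.4 to 122 on neonate gels, and the OPC sums were lower on aged gels. Their part in these differences was not tested.

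Whether the age difference itself changed with culture was asked of each member. By limma no member passed, beside 0.112% of all genes, or 17, that did, and by voom none passed either. At an unadjusted p under 0.05 there were 5 members and 5.57% of all genes. The change was -5.41 for Enpp6 (SE 1.45; limma, adjusted p = 0.235) and -4.57 for Cnp (SE 1.27; limma, adjusted p = 0.276). For Bmp4 it was -4.17 and for Lims2 2.35 (limma, adjusted p = 0.734 and 0.758). Enpp6 passed only without aged stiff replicate 1, the 1 aged gel library that held any Enpp6 (-6.10; limma, adjusted p = 0.0451).

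**Figure D2:**
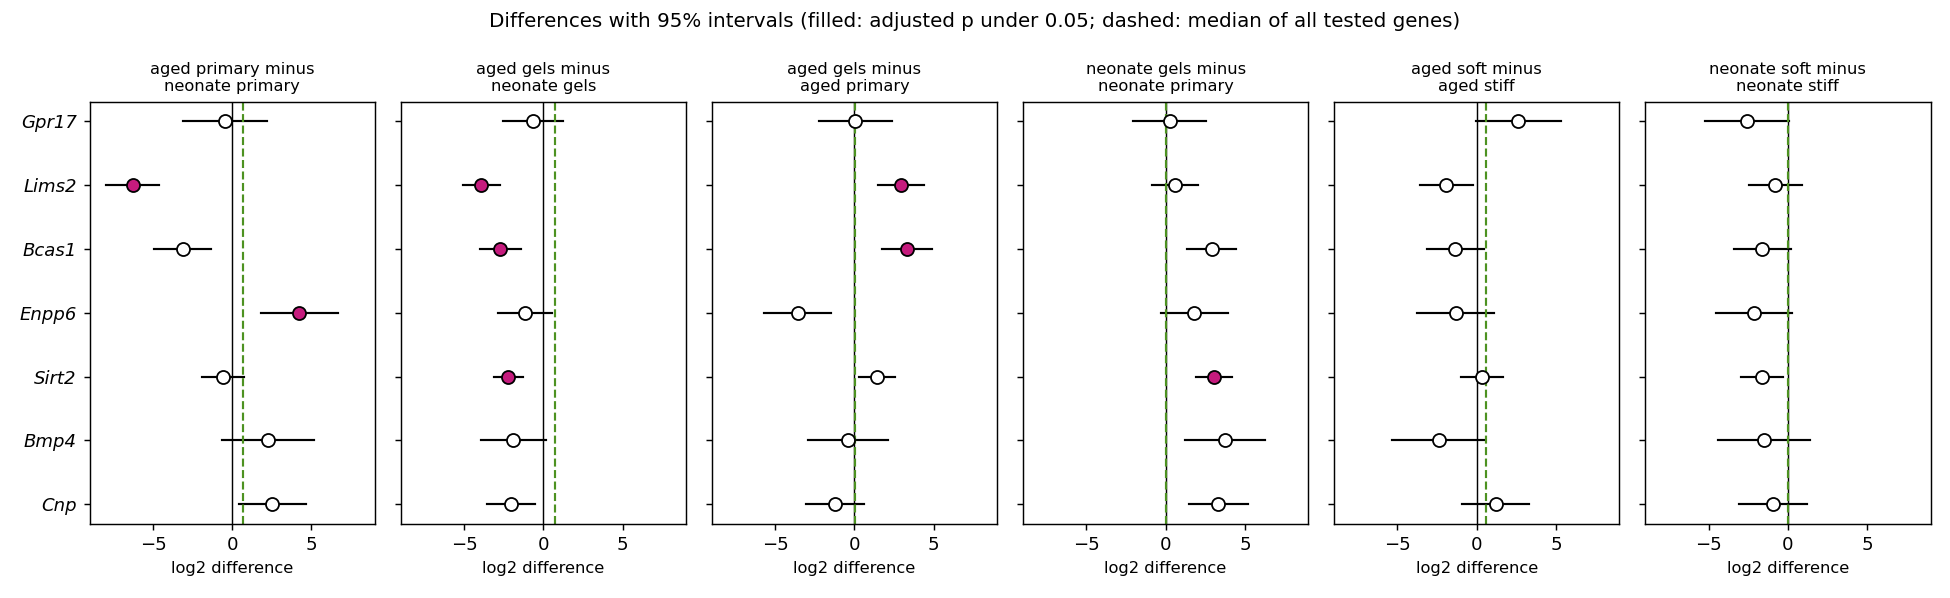
Log2 differences of the 7 genes in 6 comparisons (x axis) with 95% intervals from limma. Filled points passed the adjusted threshold, and the dashed line is the median of all 15144 genes tested. On gels all 7 genes lie to the left of 0 in the age comparison, although Gpr17 turns with voom and on soft gels alone and Lims2 without its exons 3 and 4. In the culture of neonate cells all 7 lie to the right, although Gpr17 and Lims2 turn without scaling, and Gpr17 also with a pseudocount of 0.1 and on soft gels alone.

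Culture was then compared with primary sorted cells at each age. In aged cells Bcas1 and Lims2 were higher on gels than in primary cells. Bcas1 differed by 3.30 on the log2 scale (SE 0.76; limma, adjusted p = 0.0246), at 6.24 to 57.6 scaled TPM on gels and 0 to 2.61 in primary cells. Those primary values stood for 0.718, 0 and 0.487 read-pair equivalents, and the Bcas1 values of aged soft replicates 1 and 2 for 1.24 and 1.04. Lims2 differed by 2.96 (SE 0.71; limma, adjusted p = 0.0332), at 9.27 to 251 scaled TPM on gels and 1.28 to 7.55 in primary cells. These 2 of 7 stand beside 168 calls among all genes, or 1.11%, of which 51 were higher, or 0.337%. Lims2, Bcas1 and Sirt2 were higher in every aged gel library than in every aged primary one, as were 0.812% of all genes. Sirt2 itself had a difference of 1.44 and did not pass (limma, adjusted p = 0.316), and without its exons 9 to 12 its groups overlapped. Those of Lims2 overlapped without its exons 3 and 4. The aged primary values of Lims2 over all exons rested on 0.270, 1.58 and 1.19 read-pair equivalents.

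Neither call in aged cells held against every library left out. The adjusted p of Bcas1 by limma was 0.241 without aged primary replicate 2, 0.0757 without aged primary replicate 3, 0.0642 without aged soft replicate 3 and 0.0531 without aged stiff replicate 3. That of Lims2 was 0.183, 0.0866 and 0.0894 without aged primary replicates 1, 2 and 3, 0.0763 without aged soft replicate 3 and 0.0782 without aged stiff replicate 3 (limma). Without the 3 broad libraries Bcas1 was called (limma, adjusted p = 0.0291) and Lims2 was not (limma, adjusted p = 0.105). The Lims2 call was also lost on a level without its exons 3 and 4, at 1.81 (limma, adjusted p = 0.711), with voom (2.89; adjusted p = 0.365), with a pseudocount of 0.1 (limma, adjusted p = 0.0524), and on soft gels alone (limma, adjusted p = 0.422). In a fit of only the groups compared neither gene was called, with an adjusted p by limma of 0.167 for Bcas1 and 0.122 for Lims2, and on soft gels alone Bcas1 was not called either (limma, adjusted p = 0.273). Enpp6 had a difference of -3.58, lower on gels, that missed the threshold (limma, adjusted p = 0.0948). It passed without aged stiff replicate 1, at -4.27 (limma, adjusted p = 0.0137), and without the 3 broad libraries, at -3.99 (limma, adjusted p = 0.0376). The microglial markers summed to 290 to 988 scaled TPM on aged gels and 2931 to 5520 in aged primary cells, and the choroid plexus markers to 0 to 46.7 on aged gels and 1431 to 6790 in aged primary cells. Their part was not tested.

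In neonate cells Sirt2 was higher on gels than in primary cells, by 3.08 on the log2 scale (SE 0.56; limma, adjusted p = 0.0127), at 49.7 to 506 scaled TPM on gels and 25.2 to 30.7 in primary cells. That is 1 of 7 members, beside 15 of all genes, or 0.099%, of which 6 were higher, or 0.0396%. The differences of the 7 members were positive, with a median of 2.90, whereas the median of all genes was 0, and -0.47 without scaling. Without scaling Gpr17 (-0.91) and Lims2 (-0.53) were negative. Gpr17 was also negative with a pseudocount of 0.1 (-0.25), on soft gels alone (-1.03) and without neonate primary replicate 3 (-0.32) or neonate soft replicate 3 (-0.52). Cnp (3.33; limma, adjusted p = 0.231), Bcas1 (2.90; limma, adjusted p = 0.206) and Bmp4 (3.78; limma, adjusted p = 0.502) had differences of like size that did not pass. Sirt2 and Cnp were higher in every gel library than in every primary one, as were 1.22% of all genes. Without its exons 9 to 12 Sirt2 overlapped between these groups.

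The Sirt2 call was lost when any neonate primary library was left out, with an adjusted p by limma of 0.0672, 0.0897 and 0.0887 without replicates 1, 2 and 3. It was also lost without scaling (1.96; limma, adjusted p = 0.196) and on soft gels alone (2.27; limma, adjusted p = 0.538). The OPC markers summed to 822 to 1610 scaled TPM on neonate gels and 765 to 877 in neonate primary cells, the microglial markers to 34.4 to 122 on gels and 136 to 287 in primary cells, and the choroid plexus markers to 0 to 23.96 on gels and 272 to 1209 in primary cells. Their part in the culture differences was not tested. With voom on read-pair equivalents 3 members passed, adding Bcas1 (limma, adjusted p = 0.0254) and Cnp (limma, adjusted p = 0.0302). Both culture comparisons and both age comparisons share groups, so their values are not independent of each other.

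Gel stiffness was compared last. By limma no member passed in aged cells, where 0.0792% of all genes, or 12, passed, and none passed in neonate cells, where 0% of all genes did. At an unadjusted p under 0.05 there were 1646 genes (10.9%) in aged cells, among them 1 member, and 438 (2.89%) in neonate cells, again with 1 member. In neonate cells all 7 members had lower means on soft than on stiff gels, with a median of -1.61, whereas the median of all genes was 0.02, and 0.27 without scaling. Lims2 turned to 0.30 without neonate soft replicate 1. Sirt2 on soft gels averaged 205 ± 219.5 scaled TPM, against 422 ± 72.0 on stiff ones (SD, n = 3 each), a difference of -1.62 (95% interval -2.94 to -0.30; limma, adjusted p = 1). With voom 6 genes were called in neonate cells, among them Sirt2 (-1.89; limma, adjusted p = 0.0352), and 6 genes but no member in aged cells.

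Gpr17 differed by 2.62 between aged soft and stiff gels (95% interval -0.04 to 5.29) and by -2.58 between neonate soft and stiff gels (95% interval -5.25 to 0.09). The aged difference minus the neonate difference was 5.20 (SE 1.84; limma, adjusted p = 0.761), where 0.0066% of all genes, or 1, passed. Enpp6 was the only member lower in every neonate soft than in every neonate stiff library, as were 2.53% of all genes. The 3 neonate soft libraries differed widely among themselves. Gpr17, Lims2, Bcas1, Sirt2, Bmp4 and Cnp all had their lowest value of the group in replicate 1 and their highest in replicate 3, and the summed mature oligodendrocyte markers were 119, 138 and 316 scaled TPM in replicates 1, 2 and 3. On neonate stiff gels that sum was 755, 696 and 291 scaled TPM, and its part in the stiffness values was not tested.

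Gpr17 lies inside an intron of Lims2, on the opposite strand, and the reads were counted without a strand option. In the rn6 annotation of the files Gpr17 is a single exon of 1020 bases on the minus strand, chr18:24734330-24735349. The intron is that between exons 4 and 5 of Lims2, which runs on the plus strand over chr18:24708115-24746159 with 9 exons. The annotated exons of the 2 genes share 0 bases, so the levels of both were taken from separate annotated stretches. Whether transcripts of either gene reach beyond their annotation onto exons of the other was not tested. The nearest exon of Lims2, exon 4, ends 2421 bases beyond the 3′ end of the annotated Gpr17 exon. Lims2 also overlaps Myo7b, on the minus strand, with 0 exonic bases shared.

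Nearly all of the Lims2 level came from 2 short exons. Exons 3 and 4 together span 188 bases, or 9.17% of the exonic length, and are 250 bases apart. Their share of the covered bases of Lims2 was 76.5% to 100% in aged soft libraries, 17.3% to 100% in aged stiff libraries, and in aged primary cells 100% in 2 libraries and 0% in replicate 1. In the 9 neonate libraries it was 98.8% to 100%.

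A level from the other 7 exons alone gave Lims2 1.41, 0 and 0 scaled TPM in aged primary cells, against 0, 0.387 and 0.460 in neonate primary cells. On gels it gave 4.50, 0 and 5.75 scaled TPM in aged soft and 27.0, 9.25 and 0 in aged stiff libraries, against 0, 2.49 and 9.48 in neonate soft and 6.96, 0 and 9.99 in neonate stiff libraries. On this level the age difference was 0.08 in primary cells and 0.29 on gels, and the culture difference in aged cells 1.81, none of them called, as given beside each comparison. The called differences of Lims2 with age therefore rest on the coverage of exons 3 and 4. This alternative was chosen after the exon values were seen, and which transcript the reads on those exons came from was not tested.

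**Figure D3:**
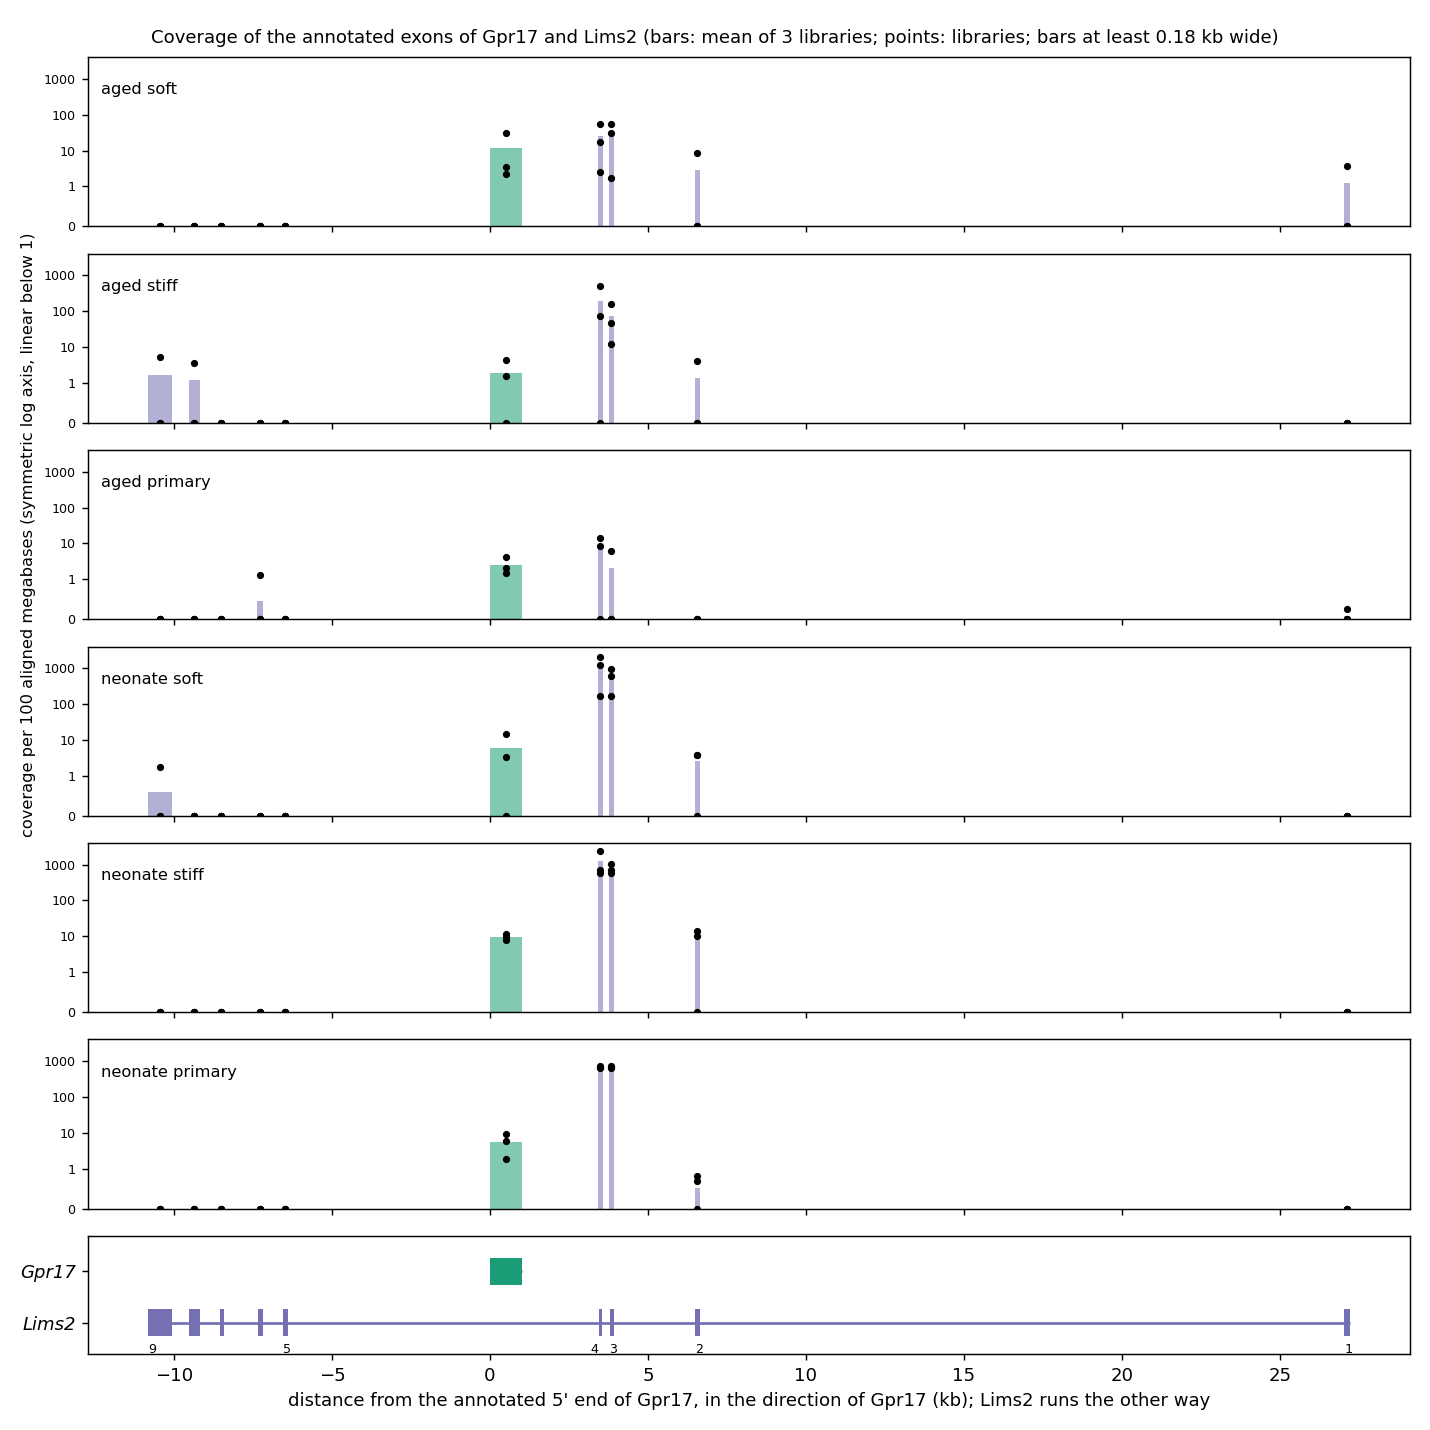
Coverage of the exons of Lims2 (violet) and Gpr17 (green) per 100 aligned megabases, on a symmetric log axis, against the distance in kb from the annotated 5′ end of Gpr17. Bars are means of 3 libraries and points single libraries. Exons 3 and 4 of Lims2 stand far above its other exons in the 3 neonate groups, where they hold 98.8% to 100% of its covered bases.

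Sirt2 and Bcas1 were also covered unevenly, though over more of their length. Sirt2, chr1:86949413-86971954 on the plus strand, has 15 exons, of which exons 9 to 12 held 16.1% to 41.2% of covered bases in aged soft, 51.1% to 100% in aged stiff and 0% to 59.1% in aged primary libraries. In neonate cells the share was 32.7% to 65.7% on soft gels, 58.2% to 68.8% on stiff gels and 29.4% to 62.4% in primary cells. Without those exons Sirt2 remained lower on aged than on neonate gels, by -2.96 (SE 0.61; limma, adjusted p = 0.00346). The culture difference in neonate cells was 2.64 without them and no longer passed (limma, adjusted p = 0.331). On this level aged stiff replicates 2 and 3, at 0 and 3.16 scaled TPM, lay below all aged primary libraries, at 7.66 to 27.5. Neonate soft replicate 1, at 24.3 scaled TPM, lay within the neonate primary range of 10.8 to 24.6. Like that of Lims2, this level was chosen after the exon values were seen.

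Bcas1, chr3:167957994-168033457 on the minus strand, has 11 exons. Exons 2 to 9, numbered along the genome, held 71.3% to 100% of its covered bases on aged gels and 83.1% to 100% in neonate libraries. Exons 10 and 11, at the 5′ end of the gene, were covered in a single library, aged primary replicate 1, 1 of the 3 broad libraries, where they held 82.7% of the covered bases. The other members are Enpp6, chr16:48319990-48437242 with 8 exons, Bmp4, chr15:20776216-20779802 with 3 exons, both on the minus strand, and Cnp, chr10:88490798-88497357 with 4 exons on the plus strand. Exon 4 of Cnp, its last, held a median of 70.8% of the covered bases over the 17 libraries with any, and exon 8 of Enpp6, the exon at its 5′ end, 75.6% over 8 libraries.

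**Figure D4:**
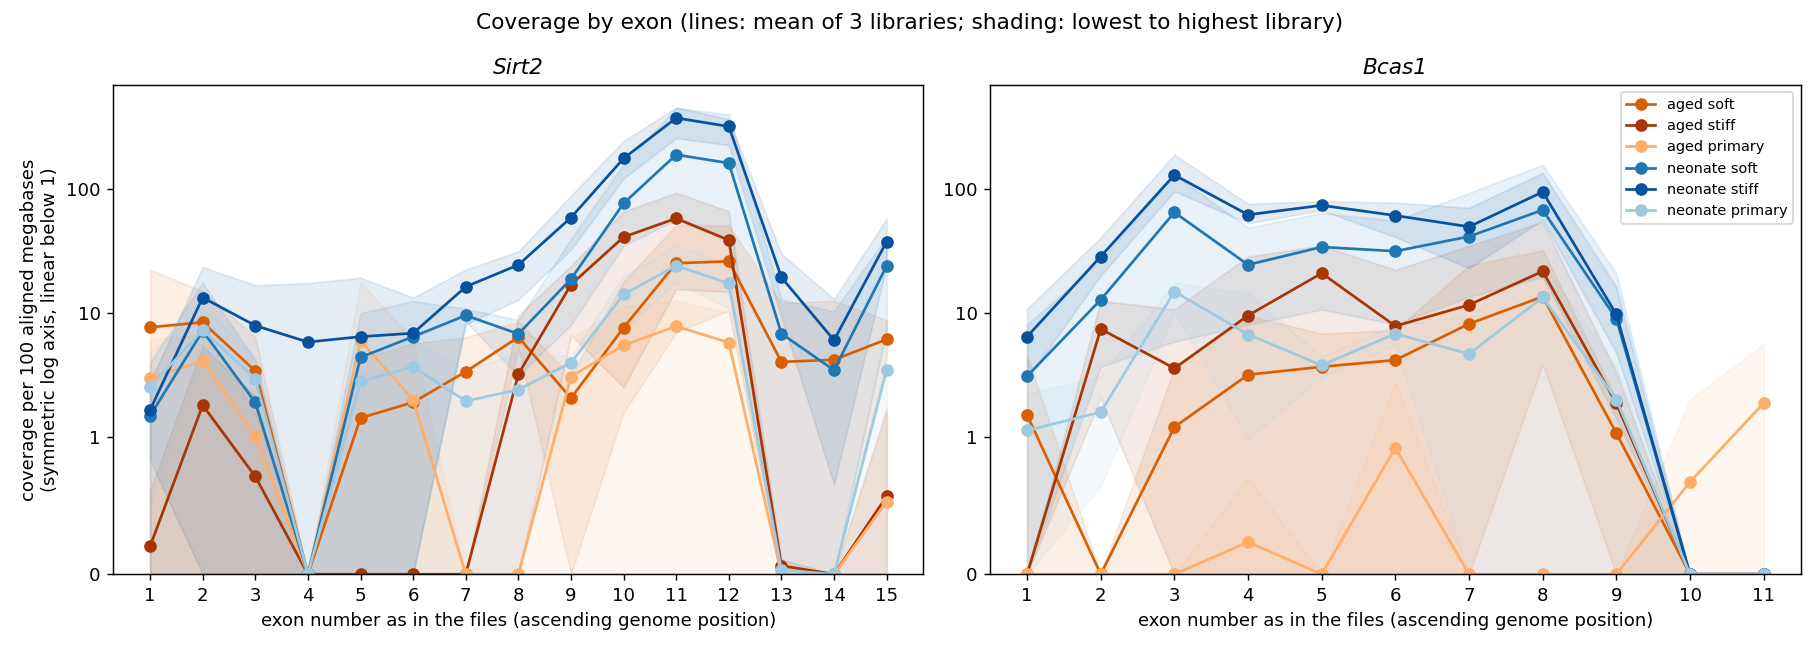
Coverage of each exon of Sirt2 and Bcas1 per 100 aligned megabases, on a symmetric log axis, with a line for the mean of each group of 3 libraries and shading between its lowest and highest library. Sirt2 peaks at exons 9 to 12 in all neonate groups, and exons 10 and 11 of Bcas1 are above 0 in aged primary cells only.

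The members did not all vary together. Over the 18 libraries, which share a scaling step and span all 6 groups, Pearson's r of log2 levels was 0.89 between Bcas1 and Sirt2, 0.84 between Lims2 and Bcas1 and 0.67 between Lims2 and Sirt2. It was 0.14 between Gpr17 and Lims2, and -0.32 between Enpp6 and Lims2, the lowest of any pair. The Lims2 level used for these values and for its likeness to other genes came mostly from exons 3 and 4, as given above. The genes most like each member over the 18 libraries were taken from 4260 genes with a mean of at least 10 scaled TPM that were above 0 in at least 9 libraries. For Sirt2 they were Nfasc (0.90), which encodes the axo-glial adhesion protein neurofascin, Cdkn1c (0.87), a cell cycle inhibitor, and Plxnb3 (0.81), a semaphorin receptor of oligodendrocytes. Nfasc was also the most like Bcas1 (0.87), followed by Dalrd3 (0.84) and Ncam1 (0.84). Lims2 was most like Gpr39, Apeg3 and Slc2a6 (0.91 each), of which Apeg3 is an antisense gene whose reads cannot be told from those of its partner without strand. Enpp6 was most like Pitpnm1 (0.78), Jam2 (0.75) and Slc25a46 (0.74), and Cnp most like Dnajb12, Serinc5 and Taf10 (0.83 each). Gpr17 with Aup1 (0.73), Gnai3 (0.72) and Slc15a4 (0.71), and Bmp4 with Dynlt1 (0.75), Asap1 (0.70) and Dynll2 (0.66), had weaker likeness.

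Other genes of the same stage passed the threshold only in the age comparison on gels. Of 20 further genes of committed and newly formed oligodendrocytes 19 were tested. By limma none passed in primary cells (5 at an unadjusted p under 0.05), where 2.6% of all genes did. Their median difference there was 0.61, beside 0.69 for all genes. On gels 2 of the 19 passed, Sox8 and Fyn, both lower in aged cells, beside 1.76% lower and 3.8% higher of all genes. Sox8, a transcription factor of the oligodendrocyte lineage, differed by -2.87 (limma, adjusted p = 0.0272), and Fyn, a kinase that promotes myelination, by -1.77 (limma, adjusted p = 0.0424). The median of the list on gels was -0.67, beside 0.71 for all genes. By limma none passed in the culture or stiffness comparisons, where 0% to 1.11% of all genes did. There 0 to 5 of the 19 had an unadjusted p under 0.05.

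Of 18 OPC genes tested, 5 were lower and 0 higher in aged than in neonate primary cells, beside 0.66% lower and 1.94% higher of all genes. The 4 with the largest change were Ncan, a chondroitin sulfate proteoglycan (-5.38), Olig1 (-4.49) and Sox6 (-4.08), transcription factors of the lineage, and Pdgfra, the receptor for PDGF (-4.46). On gels 8 were lower and 0 higher, beside 1.76% lower and 3.8% higher of all genes, led by Cacng4 (-4.06), Sox10 (-3.70), Ncan (-3.58) and Serpine2 (-3.53). In aged cells Olig1, 1 of the 18, was higher on gels than in primary cells (2.90; limma, adjusted p = 0.037), as were 0.337% of all genes.

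Mature oligodendrocyte genes lay mostly higher in aged than in neonate primary cells, with a median difference of 3.38 beside 0.69 for all genes. Of 21 tested, 4 passed as higher and 1 as lower, beside 1.94% higher and 0.66% lower of all genes. Tf (5.42), Ptgds (5.37), Aspa (5.05) and Apod (4.85) were higher, and Mog, a protein of the outer myelin surface, was lower (-4.93; limma, adjusted p = 0.000927). The choroid plexus sums given above were higher in the same aged primary libraries. Tf and Ptgds are known to be expressed in choroid plexus too, and the part of these cells was not tested. On gels 3 passed as higher in aged cells, Tf (3.49), Apod (3.38) and Opalin (3.27), and 0 as lower. Of all genes 3.8% were higher and 1.76% lower there. The median of the list on gels was 1.64, beside 0.71 for all genes. In aged cells Mog was higher (3.26) and Ptgds lower (-4.38) on gels than in primary cells, and the choroid plexus sums were lower on gels as well. They were the only calls among the 21 there, where 0.337% of all genes were higher and 1.11% passed in either direction.

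Calls among partners and relatives of single members are set beside the share of all genes. Of 23 BMP pathway genes tested, none passed by limma in primary cells (6 at an unadjusted p under 0.05), where 2.6% of all genes did. On gels Id3, a target of BMP signalling, was lower in aged cells (-5.06; limma, adjusted p = 0.000757), as was Bmpr2, a type II BMP receptor (-2.62; limma, adjusted p = 0.0215). These are 2 of 23, beside 1.76% lower of all genes. Smad7, an inhibitor of the pathway, was lower on aged gels than in aged primary cells (-3.67; limma, adjusted p = 0.0462), where 1.11% of all genes passed in either direction. Of 8 genes of the integrin-linked kinase complex, to which Lims2 belongs, none passed by limma in the 8 comparisons. Nor did any of 5 other sirtuins, and of all genes 0% to 5.55% passed. At an unadjusted p under 0.05 there were 0 to 2 genes of the complex and 0 to 1 sirtuin in each.

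Of 9 receptors related to Gpr17, 2 were higher in aged primary cells, P2ry6 (5.40) and P2ry12 (4.14), as were 1.94% of all genes. P2ry12, which is also 1 of the microglial markers counted above, was lower on gels than in primary cells in aged (-8.11) and in neonate cells (-5.12). In those comparisons 1.11% and 0.099% of all genes passed in either direction. Of 6 relatives of Enpp6, Enpp4 was higher on aged gels than on neonate gels (3.01; limma, adjusted p = 0.00452), as were 3.8% of all genes.

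Counts of calls over all genes split differently without scaling. In primary cells 294 genes were higher and 100 lower with age, against 241 and 154 without scaling. On gels 575 were higher and 266 lower with age, against 553 and 112 without scaling. In the culture of neonate cells 6 were higher and 9 lower, against 0 and 47 without scaling, and for the change of the age difference with culture 5 were higher and 12 lower, against 9 and 5 without scaling.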

How the data were processed

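Total RNA libraries made with a stranded kit for picogram inputs were sequenced in pairs of 150 bases, per the labels. Per the file headers, the authors quantified annotated rn6 transcripts with StringTie 1.3.2d at a minimum length of 100 bases and with no strand option, and deposited TPM, FPKM and mean coverage for each transcript. The submitters' processing notes also name Trimmomatic, HISAT2 and Bowtie, with no versions.

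TPM was summed per gene and scaled with factors from the medians of ratios over the 1644 genes that no library listed at 0. A gene entered the test where 3 or more of the 18 libraries reached a TPM of 1, which 15144 did. Their log2(scaled TPM + 1) values were fitted in limma 3.58.1 (R 4.3.3) as 6 group means with a variance trend, and Benjamini-Hochberg adjustment covered all of them (threshold 0.05). Fold changes on this scale understate those of low genes. Culture comparisons and the age comparison on gels used the mean of both gels, whereas stiffness comparisons set single gel groups against each other. The fit was tested on simulated data in which genes were changed in aged primary cells only and all genes shared a common setting of the spread. That run does not measure how the fit handles the spread of these libraries. Read-pair equivalents are coverage times length over 300 bases.

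The members and gene lists were chosen with earlier results of these data known. Named are the 7 members, up to 4 called genes per list and comparison, the 3 genes most like each member, and genes overlapping a member. Alternatives were the filter, the pseudocount, scaling, voom, the groups fitted, a replicate block, single gels and left-out libraries.

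Numbers in the file headers differ from those in the titles, and titles alone do not say that a number marks a shared animal or day, so libraries were not paired.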

Additional observations from a re-analysis of the deposited data

How the results depend on the processing

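Low depth limits every value given here: of the 7 members 6 had a median under 10 read-pair equivalents per library. Over 56 member differences, 518 values came from settings that left out no single library. Of these, 472 kept their direction and side of the threshold, 19 lost a call, 7 gained one, 19 turned direction and 1 fell to 0. Of the 19 that turned, 2 were called differences, both of Lims2 without its exons 3 and 4. A level from annotated exonic bases of Gpr17 and Lims2 that do not overlap equals the reported value, since 0 annotated bases are shared. The cause of the changes below was not tested.

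With the replicate block Bcas1 was called in aged against neonate primary cells (adjusted p = 0.0242, limma), which made 3 members there. It changed no other call of a member, and 428, 1056, 13, 0, 187 and 16 genes were called for age in primary cells, age on gels, stiffness in aged cells, stiffness in neonate cells, culture in aged cells and culture in neonate cells. Deviations of same-numbered libraries correlated at -0.012 to 0.233, so the numbers were not taken to pair them.

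For age in primary cells 160 genes were called with a pseudocount of 0.1 and 977 with voom, and 1 member without the filter, with a pseudocount of 0.1 and with factors centred on 1, the last chosen after seeing the data. For Lims2 without exons 3 and 4 the difference was 0.084 there and 0.29 for age on gels. For age on gels 1748 genes were called with voom, 236 on soft gels alone (1 member) and 330 on stiff gels alone, and Gpr17 was 0.035 with voom and 1.95 on soft gels. For stiffness in aged cells 1 gene was called without scaling, 6 with voom, 117 without the broad libraries and 0 in a fit of only the groups compared. For stiffness in neonate cells 6 genes and 1 member were called with voom, and 1 gene in a fit of only the groups compared.

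For culture in aged cells the calls were 76 genes and 1 member with a pseudocount of 0.1, 436 and 1 with voom, 76 and 0 on soft gels, and 100 and 0 in a fit of only the groups compared. Gpr17 was -0.47 with a pseudocount of 0.1, -0.15 without scaling and -1.26 on stiff gels, and Bmp4 was 0.060 with voom, 0.31 without the broad libraries and 0.81 on stiff gels. For culture in neonate cells the calls were 47 genes and 0 members without scaling, 71 and 3 with voom, 6 and 0 on soft gels, and 53 and 2 in a fit of only the groups compared. Gpr17 was -0.25 with a pseudocount of 0.1, -0.91 without scaling and -1.03 on soft gels, and Lims2 was -0.53 without scaling.

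For the change of the age difference with culture 8 genes were called with a pseudocount of 0.1, 85 with voom, 26 without the broad libraries and 2 on soft gels, and Gpr17 was 0.75 without scaling, 0.45 with voom and 2.39 on soft gels. For the change of the gel difference with age 0 genes were called without the filter, without scaling, with voom and in a fit of only the groups compared, and 6 without the broad libraries. Bcas1 was -0.35 without scaling and Bmp4 0.033 without the broad libraries.

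With each library left out in turn, the genes called ranged from 166 to 346 for age in primary cells, 513 to 1728 for age on gels, 3 to 69 for stiffness in aged cells, 0 to 1 in neonate cells, 43 to 231 for culture in aged cells, 3 to 18 in neonate cells, 2 to 26 for the change of the age difference with culture and 0 to 6 for that of the gel difference with age. Members called were 1 in each fit for age in primary cells, 3 to 4 for age on gels, 0 to 3 for culture in aged cells, 0 to 1 in neonate cells and 0 to 1 for the change of the age difference with culture. Differences that turned direction were those of Gpr17 for age on gels (-1.65 to 0.15), culture in aged cells (-0.60 to 0.87), culture in neonate cells (-0.52 to 1.26) and the change of the age difference (-1.21 to 0.59). They were also those of Cnp for stiffness in aged cells (-0.36 to 2.39), Lims2 for stiffness in neonate cells (-1.59 to 0.30), and Bmp4 for culture in aged cells (-1.55 to 0.42) and the change of the gel difference (-2.42 to 0.53). The last were those of Bcas1 for the change of the age difference (-0.16 to 0.93) and of the gel difference (-0.64 to 1.2). Where a group kept 2 libraries, all groups shared the estimate of the spread.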
